A study of Mus musculus with 2 samples.

Results

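The genes of 5 growth factor systems were compared between injured kidneys of wild-type and transgenic mice: those of fibroblast growth factor (FGF), insulin-like growth factor (IGF), platelet-derived growth factor (PDGF), vascular endothelial growth factor (VEGF) and hepatocyte growth factor (HGF). They were taken by symbol, as all rows named *Fgf* or *Fgfr* with a number, *Igf* or *Igfbp* with a number, *Pdgf*, *Vegf*, *Hgf*, *Met* or *Pgf*. This gave 41 of the 19829 genes in the table, namely 14 of the FGF family, 14 of the IGF family, 6 of the PDGF family, 5 of the VEGF family and 2 of the HGF family. The pattern also took up 5 genes that share only the name, *Fgfr1op*, *Fgfr1op2*, *Igf2bp1*, *Igf2bp2* and *Igf2bp3*, which encode neither ligands nor receptors and are kept apart below.

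Both libraries were made from whole-kidney mRNA of mice with acute kidney injury (AKI) and are called WT+AKI and TG+AKI, with 1 library in each group. TG mice overexpressed *Inmt*, which encodes indolethylamine N-methyltransferase, in proximal tubules, and the promoter that drives the transgene is not given in the sources used here. Both groups shared the remaining treatment: voclosporin, a calcineurin inhibitor, at 30 mg/kg per day by intraperitoneal injection for 2 weeks, from 8 to 10 weeks of age, and bilateral ischemia–reperfusion (I/R) of the kidneys for 30 min at 14 weeks of age. For I/R, the authors name male mice of a C57BL strain. Kidneys were taken at either 24 h or 48 h, as both times are given, and how many mice went into a library is not given. The sample records state no treatment, and the title of the TG+AKI sample also speaks of a conditional knockout, so the labels are not free of contradiction.

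The libraries held 38542764 reads (WT+AKI) and 36427421 reads (TG+AKI). Values are read counts divided by a library factor, so that 1 read was worth 0.0236 in WT+AKI and 0.0302 in TG+AKI. Pairs of values and of reads are given below with WT+AKI first. *Inmt* stood at 10.4 and 402.8 (443 and 13339 reads), higher in the library labelled as transgenic. With 1 library per group there was no replicate error. Brackets hold 95% Clopper–Pearson intervals from the reads, which cover counting error alone, and no p-value was computed. Whether a difference between the libraries exceeds the difference between 2 mice of one genotype could not be measured. In whole tissue, fewer cells of a type and less RNA per cell cannot be told apart.

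Growth factors of these families bind receptor tyrosine kinases on neighbouring cells, which pass the signal on through the ERK and PI3-kinase cascades. In the kidney, tubules and podocytes make VEGF-A, which maintains the capillary endothelium, and pericytes and fibroblasts carry the PDGF receptors. HGF is made mainly by cells of the interstitium and acts on its receptor MET on epithelium. IGF availability is set by binding proteins (IGFBPs), which hold the ligand and release it when proteases cut them. FGF ligands act with heparan sulfate or, for the endocrine ones, with klotho proteins.

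The stretches before the RefSeq start sites of 4 members are shown because they had the 3 highest ratios of TG+AKI to WT+AKI and the lowest ratio of the members compared. They are given on the coding strand of GRCm38.p6, without bases that lie in an exon of the gene in GENCODE M21. *Igfbp5* is shown from chr1:72874885-72875115 (minus strand), *Igfbp1* from chr11:7197537-7197781 (plus strand), *Vegfa* from chr17:46032378-46032627 (minus strand) and *Fgf18* from chr11:33147401-33147650 (minus strand). Capitals mark exact matches, on either strand, to the TATA box (TATAAA), the GC box (GGGCGG), the AP-1 site (TGANTCA), the core bound by hypoxia-inducible factor (ACGTG) and an insulin response sequence (CAAAACA), the last of which was added after the *Igfbp1* sequence had been seen.
Igfbp5: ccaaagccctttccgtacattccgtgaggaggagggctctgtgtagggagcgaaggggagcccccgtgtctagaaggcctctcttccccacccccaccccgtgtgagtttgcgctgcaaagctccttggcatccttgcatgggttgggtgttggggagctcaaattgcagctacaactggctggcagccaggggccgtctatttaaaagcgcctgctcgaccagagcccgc
Igfbp1: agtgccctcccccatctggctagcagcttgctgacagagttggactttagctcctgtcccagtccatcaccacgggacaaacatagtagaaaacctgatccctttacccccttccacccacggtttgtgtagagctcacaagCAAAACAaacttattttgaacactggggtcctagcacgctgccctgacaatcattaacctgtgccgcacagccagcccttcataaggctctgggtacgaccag
Vegfa: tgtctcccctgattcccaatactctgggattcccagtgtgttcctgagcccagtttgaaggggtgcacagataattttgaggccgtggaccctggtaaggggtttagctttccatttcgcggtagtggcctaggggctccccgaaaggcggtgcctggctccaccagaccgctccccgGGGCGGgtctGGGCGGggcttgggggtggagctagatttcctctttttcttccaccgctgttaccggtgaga
Fgf18: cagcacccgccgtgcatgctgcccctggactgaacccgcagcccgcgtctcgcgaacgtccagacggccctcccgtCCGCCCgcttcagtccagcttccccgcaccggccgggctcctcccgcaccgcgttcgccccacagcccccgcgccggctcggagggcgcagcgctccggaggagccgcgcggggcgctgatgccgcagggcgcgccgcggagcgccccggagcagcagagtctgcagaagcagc

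The *Igfbp1* stretch held CAAAACA, beginning 108 bases before the start, whereas *Vegfa* held GC boxes beginning 72 and 62 bases before its start. *Fgf18* held 1 GC box, 174 bases before its start on the opposite strand, and none of the 5 motifs was found in the *Igfbp5* stretch. Among all 32851 RefSeq windows of 250 bases before a start site, 32.7% held the GC box, 16.6% ACGTG, 12.4% the TATA box, 6.75% the AP-1 site and 5.56% CAAAACA. Windows were found for 36 members, and 20 of them held the GC box, 8 ACGTG, 4 the TATA box, 2 the AP-1 site and 2 CAAAACA. These matches describe the letters only.

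Genes were compared if either library reached a value of 1, and 34 of the 41 members met it. Of these, 33 reached a value of 1 in both libraries, and *Fgf18* did so in WT+AKI only. The other 7 members (*Fgf7*, *Fgf10*, *Fgf12*, *Igfbp2*, *Igfbp6*, *Igf2bp3* and *Pgf*) are given by their reads. A gene was called at a ratio of at least 2-fold. By this rule 4 members were higher in TG+AKI (*Igfbp5*, *Igfbp1*, *Vegfa* and *Fgfr4*), or 11.8% of those compared, against 7.35% of all 14997 genes compared. Another 4 were lower (*Fgf18*, *Hgf*, *Igf2bp2* and *Pdgfa*), again 11.8%, against 11.0% of all genes. As a set, the growth factor genes were thus called about as often as other genes, and the median log2 ratio of TG+AKI to WT+AKI was 0.14 over the 34 members and -0.02 over all genes compared. For 27 of the 34 the counting interval excluded 1, as it did for 75.03% of all genes compared.

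**Figure D1:**
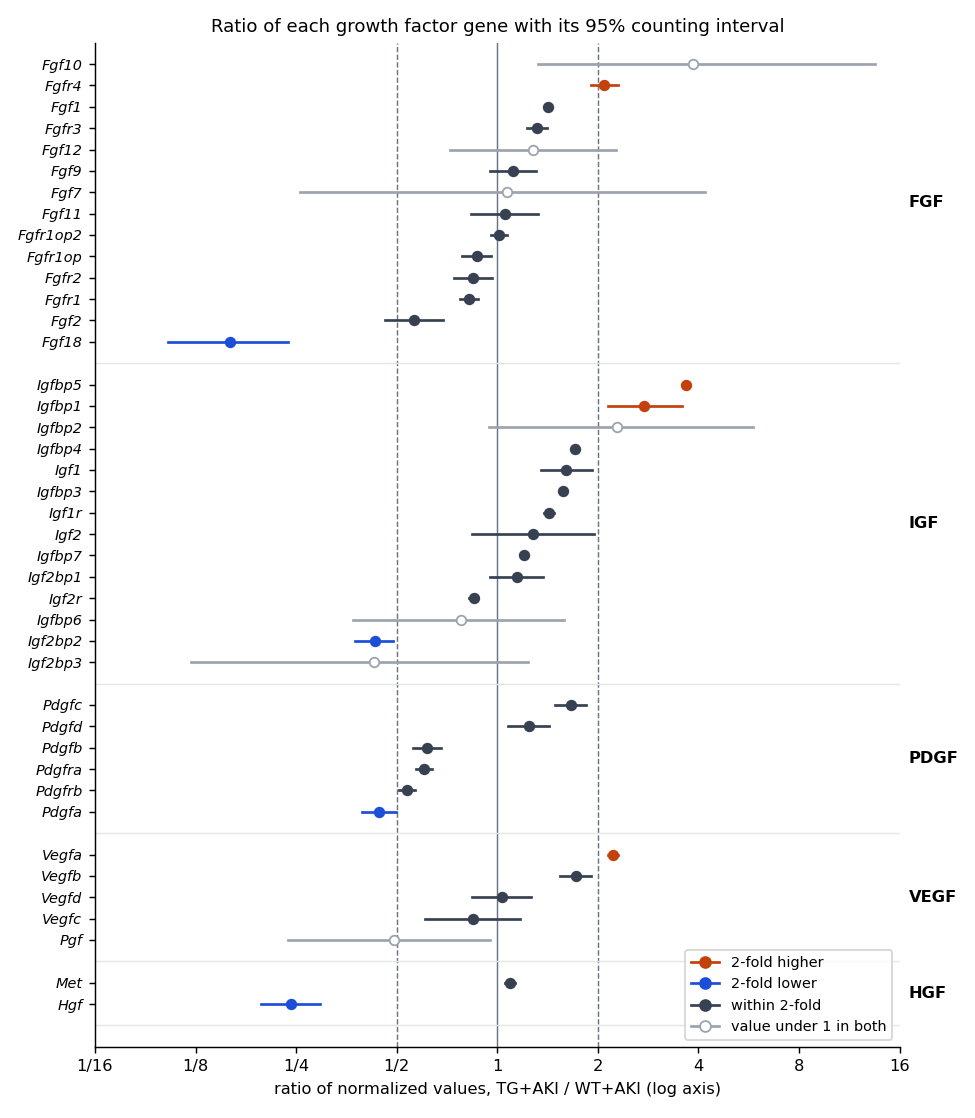
Ratio of the normalized value in TG+AKI to that in WT+AKI for the 41 members, grouped by family, on a log axis. Points are ratios from 1 library per group and bars are 95% counting intervals. Dashed lines mark 2-fold, filled orange and blue points are the 4 members higher and the 4 lower by at least that much, and open points have values under 1 in both libraries.

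The scaling of the libraries bears on these calls. Over all genes, 1103 were called higher and 1645 lower with the deposited values, and 715 and 2415 after scaling to equal column totals, a change that shifted every log2 ratio by -0.27. The direction of 33 members was the same under all 5 alternatives tried for single members. The 8 others (*Fgf7*, *Fgf9*, *Fgf11*, *Fgfr1op2*, *Vegfd*, *Met*, *Igfbp7* and *Igf2bp1*) had ratios between 1.01 and 1.20 and turned below 1 with equal totals. Shares within a family, given below, do not depend on this scaling. Those by reads depend on exon length, since longer genes gather more reads.

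The IGF binding proteins spanned the most abundant members per kilobase (*Igfbp7*, *Igfbp4* and *Igfbp3*) and some of the least abundant, and *Igfbp5* had the highest called ratio. *Igfbp5* (gene ID 16011, chr1:72857932-72874884) encodes a binding protein that also attaches to extracellular matrix. Its values were 183.9 and 676.2 (7796 and 22394 reads), a ratio of 3.68 [3.58 to 3.77]. *Igfbp1* (gene ID 16006, chr11:7197782-7202546), known from liver as a gene that insulin represses, had low values of 2.17 and 5.98 (92 and 198 reads), a ratio of 2.76 [2.14 to 3.57]. Both were past 2-fold over their whole intervals and under each scaling tried. Of 7 hepatocyte markers, 4 could be compared and 2 were called higher, or 50% against 7.35% of all genes. These were *Alb* (0.802 and 8.27) and *Ttr* (22.8 and 75.5). *Alb* reached a value of 1 in TG+AKI only, the library where it was higher. Of the 4, 3 had an interval above 1, and *Serpina1a* had one below 1 (68.8 and 47.8, ratio 0.696 [0.654 to 0.740]). The sums over the list were 95.1 and 135.4. The part of these markers in the value of *Igfbp1* was not tested.

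The remaining abundant binding proteins stayed within 2-fold. *Igfbp4*, whose product is cut by the protease PAPP-A, had values of 303.9 and 517.8 (ratio 1.70 [1.67 to 1.74]). *Igfbp3*, the main IGF carrier of plasma, had values of 275.1 and 432.4 (ratio 1.57 [1.53 to 1.61]). *Igfbp7* encodes a protein with low affinity for IGF that is used in urine as a marker of kidney stress. Its values were 697.5 and 838.2, a ratio of 1.20 [1.18 to 1.22], which became 0.993 with equal column totals. All 5 binding proteins that could be compared thus had a ratio above 1 with the deposited scaling, and *Igfbp7* did not with equal totals. *Igfbp2* had 9 and 16 reads and *Igfbp6* had 23 and 14, and for both the interval included 1.

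The make-up of the binding protein pool differed between the libraries. *Igfbp5* took 12.6% [12.3 to 12.8] of the 62042 reads on the 7 binding protein genes in WT+AKI and 27.4% [27.1 to 27.7] of the 81847 reads in TG+AKI. *Igfbp7* took 47.7% [47.3 to 48.1] and 33.9% [33.6 to 34.2]. The share of *Igfbp4* was 20.8% and 20.95%, with overlapping intervals. Per read of *Igfbp7* there were 0.264 reads of *Igfbp5* in WT+AKI and 0.807 in TG+AKI.

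The genes lie partly in pairs. *Igfbp5* and *Igfbp2* are tail-to-tail neighbours on chromosome 1, and *Igfbp1* and *Igfbp3* on chromosome 11 (*Igfbp3* at chr11:7206086-7213923). The ratios were 3.68 and 2.28 [0.947 to 5.84] in the former pair and 2.76 and 1.57 in the latter, so both genes of each pair had ratios above 1, although that of *Igfbp2* rested on 9 and 16 reads.

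**Figure D2:**
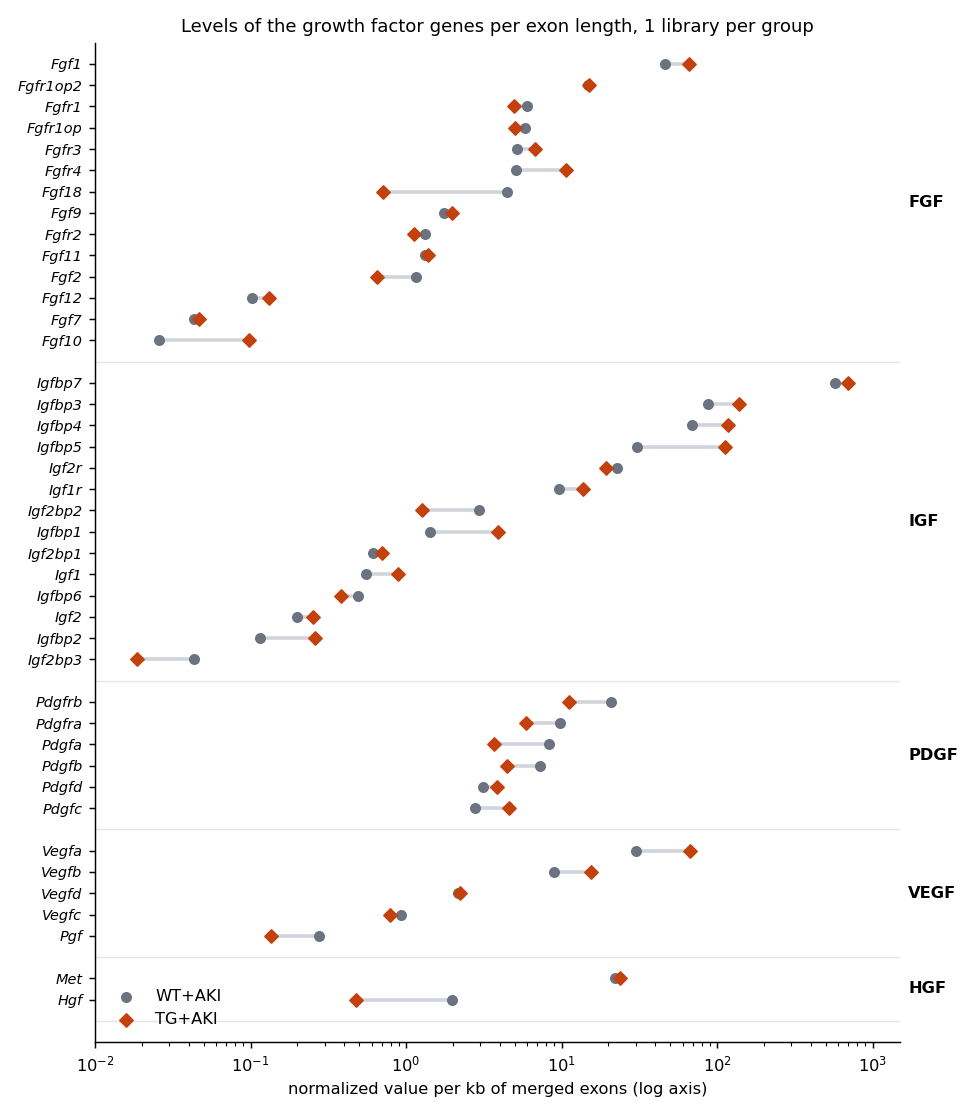
Level of the 41 members as normalized value per kb of merged exons, on a log axis, in WT+AKI (grey circles) and TG+AKI (orange diamonds), ordered within each family by the level in WT+AKI. *Igfbp7* had the highest level in both libraries, at 577.0 and 693.3, and the lowest levels belonged to *Fgf10* in WT+AKI and *Igf2bp3* in TG+AKI.

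Per kilobase of exon, *Igfbp7* stood at 577.0 and 693.3, far above any other member. It was followed in WT+AKI by *Igfbp3* (87.9), *Igfbp4* (68.8), *Fgf1* (46.6), *Igfbp5* (30.6) and *Vegfa* (30.01). In TG+AKI the order was *Igfbp3* (138.2), *Igfbp4* (117.3), *Igfbp5* (112.6), *Vegfa* (66.7) and *Fgf1* (65.8). *Igfbp5* therefore stood below *Fgf1* in WT+AKI and above it in TG+AKI. The counting intervals of neighbours in this order overlapped for *Igfbp5* and *Vegfa* in WT+AKI (29.9 to 31.3 and 29.2 to 30.8) and for *Vegfa* and *Fgf1* in TG+AKI (65.4 to 68.1 and 64.7 to 67.0).

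The IGF ligands were low and their receptors abundant. *Igf1* had values of 5.47 and 8.79 (232 and 291 reads), a ratio of 1.61 [1.35 to 1.92]. *Igf2* had 48 reads in each library, and 75.7% of the 100-base words of its longest transcript also occur in the readthrough gene *Gm49394*, so its level is uncertain. *Igf1r*, the signalling tyrosine kinase receptor, had values of 162.6 and 232.3 (ratio 1.43 [1.38 to 1.48]). *Igf2r*, the mannose 6-phosphate receptor that clears IGF2, had values of 211.8 and 180.0 (ratio 0.850 [0.822 to 0.878]). The receptors thus went in opposite directions, and the share of *Igf1r* in the reads of both was 43.4% [42.7 to 44.2] in WT+AKI and 56.3% [55.5 to 57.2] in TG+AKI. Per kilobase of exon its share was 29.9% and 41.7%, so *Igf2r* had the higher level in both libraries.

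Genes around the IGF system were mostly within 2-fold. Of 13 listed receptor substrates, IGFBP proteases and partners, 12 were compared, and 1 was called higher and 2 lower. The shares were 8.33% higher and 16.7% lower, against 7.35% and 11.0% of all genes. The median log2 ratio was 0.27 (-0.01 with equal totals). *Insrr*, which encodes the insulin receptor-related receptor, was higher at 13.9 and 37.7 (ratio 2.72 [2.46 to 3.01]). *Stc1*, encoding stanniocalcin 1, an inhibitor of PAPP-A, was lower at 10.7 and 4.26 (2.52-fold lower [2.08 to 3.07]). *Pappa*, encoding PAPP-A itself, also had a ratio below 1, at 16.3 and 9.42 (0.576 [0.503 to 0.660]), and was not called. *Irs2*, encoding an adaptor of the insulin and IGF1 receptors, was lower at 56.3 and 24.4 (2.31-fold lower [2.13 to 2.50]). *Igfals*, encoding the subunit that joins IGFBP3 and IGF in plasma, had values of 5.28 and 9.84 and was not called.

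In the VEGF family, *Vegfa* set the difference. *Vegfa* (gene ID 22339, chr17:46016993-46032369) had values of 128.6 and 286.0 (5452 and 9472 reads), a ratio of 2.22 [2.15 to 2.30]. It fell short of 2-fold with equal column totals, where its log2 ratio was 0.88. *Vegfb*, a ligand of the receptor FLT1, had values of 14.4 and 24.7 (ratio 1.72 [1.54 to 1.91]). Both were higher in TG+AKI under every scaling tried.

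The lymphatic ligands showed no difference beyond counting error. *Vegfc* had values of 2.29 and 1.93 (ratio 0.845 [0.606 to 1.17]), and *Vegfd* of 5.21 and 5.37 (ratio 1.03 [0.842 to 1.26]). *Pgf*, encoding placental growth factor, had 34 and 13 reads (ratio 0.489 [0.237 to 0.952]) and was too low to be compared. *Vegfa* made up 85.0% [84.1 to 85.9] of the reads on the 5 VEGF ligand genes in WT+AKI and 89.8% [89.2 to 90.4] in TG+AKI, so its predominance was somewhat greater in the latter.

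Among the receptors and co-receptors of VEGF, only *Kdr* shared the direction of *Vegfa*. None of the 5 listed receptors and co-receptors was called, and their median log2 ratio was -0.50. *Kdr* (VEGFR-2), the main signalling receptor of endothelium, had values of 58.5 and 96.4 (ratio 1.65 [1.56 to 1.74]). *Flt1* (VEGFR-1), which binds VEGF-A tightly, had values of 136.4 and 96.7 (ratio 0.709 [0.679 to 0.740]). The lymphatic receptor *Flt4* was at 19.6 and 13.7 and the co-receptor *Nrp1* at 175.3 and 114.6. The 2 main receptors of VEGF-A therefore lay on opposite sides of 1, beyond counting error.

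Marker genes of the cells that make and receive VEGF moved unequally. Of the 10 endothelial markers, which include *Kdr* and *Flt1*, none was called, and their summed value was 728.2 in WT+AKI and 687.3 in TG+AKI. None of the 7 podocyte markers was called either (sums 466.1 and 493.1). All 11 proximal tubule markers were called higher (sums 3251 and 15176), and 9 with equal totals. Of 8 markers of the thick ascending limb and distal tubule, 5 were called higher (sums 2136 and 4951), and 4 with equal totals. *Pvalb*, called here, reached a value of 1 in TG+AKI only, and the interval of *Cldn16* included 1 (9.10 and 8.27). Of 9 collecting duct markers, 3 were called higher (sums 411.8 and 627.5), and 2 with equal totals. *Scnn1b* of that list had an interval below 1 (44.5 and 36.9). Over all genes compared, 7.35% were called higher and 11.0% lower. All 10 markers of injured proximal tubule were lower (sums 13421 and 903.4). Of these, *Krt20* (399.2 and 0.362) and *Sox9* (11.6 and 0.513) reached a value of 1 in WT+AKI only. Most of both sums came from *Spp1* (10183 and 670.5). The deposited values held no 0 for any gene, so the absence of a marker could not be seen from them. The part of these differences in the values of *Vegfa* and of the binding proteins was not tested.

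In the PDGF family, both receptors and the A and B ligands had lower values in TG+AKI, and the C and D ligands higher ones. *Pdgfa* (gene ID 18590, chr5:138976014-138997370) was the called member, with values of 25.9 and 11.4 (1097 and 379 reads), 2.26-fold lower [2.01 to 2.55]. An antisense gene, *6330403L08Rik*, covers 26.1% of the exon bases of *Pdgfa*. The authors name a stranded library kit, but the use of strand in counting is not given. Reads of the antisense gene may therefore be mixed with those of *Pdgfa*. *Pdgfb*, which recruits pericytes to vessels, had values of 30.1 and 18.6, 1.62-fold lower [1.47 to 1.79]. Platelets also carry PDGF, and of 5 platelet and megakaryocyte markers only *Itga2b* reached a value of 1 (4.15 and 4.47), while *Pf4* was at 0.542 and 0.121. The sums over that list were 4.88 and 4.83. *Pdgfc* and *Pdgfd* encode ligands that must be cut before they bind. *Pdgfc* had values of 14.1 and 23.3 (ratio 1.66 [1.49 to 1.85]), and *Pdgfd* of 9.79 and 12.1 (ratio 1.24 [1.08 to 1.43]).

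The order of the PDGF ligands by reads was changed by this. In WT+AKI *Pdgfb* held 37.7% [36.1 to 39.3] of the 3383 reads on the 4 ligand genes, and *Pdgfa* 32.4% [30.9 to 34.0]. In TG+AKI *Pdgfc* came first with 35.6% [33.6 to 37.7] of 2168 reads, against 17.6% [16.3 to 18.9] in WT+AKI, and *Pdgfa* came last with 17.5% [15.9 to 19.1]. The intervals of *Pdgfa* and *Pdgfd* (18.5% [16.9 to 20.2]) overlapped in TG+AKI, so that the last place was not settled. Per kilobase of exon the first places differed from those by reads. In WT+AKI *Pdgfa* came first with 38.8%, before *Pdgfb* with 33.8%. In TG+AKI *Pdgfc* (27.7%) and *Pdgfb* (26.9%) were close, and the intervals of their levels overlapped (4.26 to 4.92 and 4.12 to 4.83).

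Both PDGF receptors had lower values in TG+AKI. *Pdgfrb* had values of 114.2 and 61.3 (4842 and 2029 reads), 1.86-fold lower [1.77 to 1.96]. *Pdgfra* had values of 97.7 and 59.0 (4144 and 1953 reads), 1.66-fold lower [1.57 to 1.75]. Neither was called with the deposited values, whereas both passed 2-fold with equal column totals (log2 ratios of -1.17 for *Pdgfrb* and -1.004 for *Pdgfra*). Of the 11 markers of fibroblasts, pericytes and smooth muscle, 4 were called lower and none higher. The share called lower was 36.4%, against 11.0% of all genes, and the sums over the list were 607.2 and 319.3. In that list the collagen and matrix genes *Col1a1*, *Col3a1*, *Col1a2* and *Dcn* were the ones called. Of all 11, 8 had an interval below 1, among them the mural cell genes *Cspg4* (46.8 and 26.6), *Des* (18.2 and 12.4) and *Tagln* (18.4 and 13.5). The smooth muscle gene *Myh11* had an interval above 1 (21.7 and 27.5), and those of *Acta2* and *Rgs5* included 1. Their part in the receptor values was not tested.

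**Figure D3:**
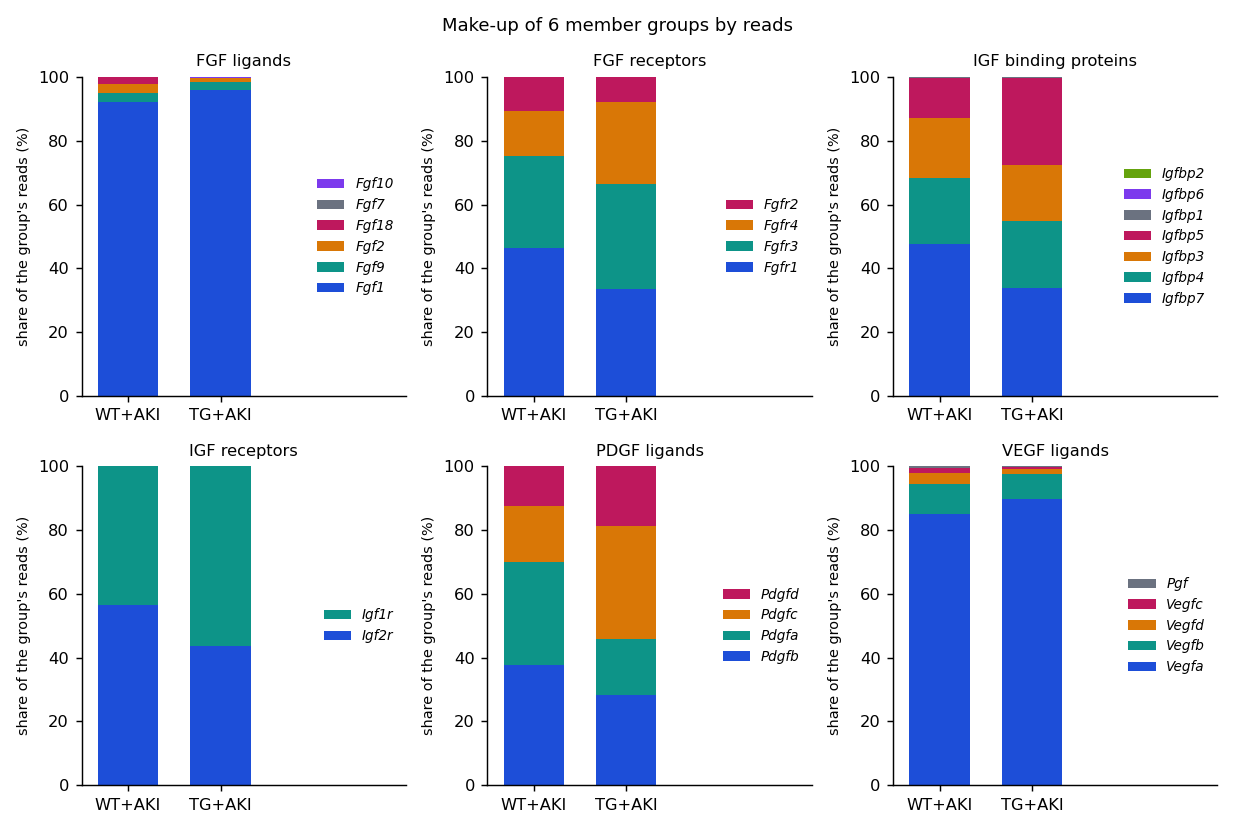
Share of the reads of each group that fell on each of its genes, as a percentage from 0 to 100, in WT+AKI and TG+AKI for 6 groups of members. TG+AKI has a larger part of *Igfbp5* and a smaller part of *Igfbp7* among binding proteins, more *Pdgfc* and less *Pdgfa* among PDGF ligands, more *Igf1r* and less *Igf2r* among IGF receptors, and more *Fgfr4* and less *Fgfr1* among FGF receptors.

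Of 6 listed genes that activate or bind PDGF, 3 were called lower and 1 higher, with a median log2 ratio of -0.93. The shares were 50% lower and 16.7% higher, against 11.0% and 7.35% of all genes. *Plat*, encoding tissue plasminogen activator, which cuts PDGF-C, was at 329.5 and 62.6, 5.27-fold lower [5.03 to 5.52]. *St14*, encoding the protease matriptase, was at 117.9 and 40.3, 2.92-fold lower [2.75 to 3.11]. *Sparc*, encoding a matrix protein that binds PDGF-B, was at 254.4 and 125.1, 2.03-fold lower [1.96 to 2.11]. The gene called higher was *Lrp2* (megalin), an endocytic receptor and proximal tubule marker, at 644.3 and 2754.

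*Hgf* was called lower, and its receptor *Met* was near equal. *Hgf* (gene ID 15234, chr5:16553495-16620152) had values of 14.3 and 3.44 (605 and 114 reads), 4.15-fold lower [3.39 to 5.11]. *Met* (gene ID 17295, chr6:17463800-17573980) had values of 168.3 and 183.5 (7137 and 6078 reads), a ratio of 1.09 [1.05 to 1.13] that became 0.901 with equal column totals. Per read of *Met* there were 0.0848 reads of *Hgf* in WT+AKI and 0.0188 in TG+AKI. The ligand was thus lower relative to its receptor whichever scaling is used. Beside *Hgf*, the fibroblast list was lower as given above. Of 9 macrophage markers, 7 were called lower (sums 194.4 and 85.5), which is 77.8% against 11.0% of all genes. The other 2, *Csf1r* (37.5 and 43.0, ratio 1.15 [1.07 to 1.23]) and *Mrc1* (2.67 and 4.26, ratio 1.60 [1.24 to 2.06]), had intervals above 1. Their part in the value of *Hgf* was not tested.

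Of the genes that activate HGF or work with MET, those called were lower. Of the 14 listed, 12 were compared, and 4 were called lower and none higher. The share called lower was 33.3%, against 11.0% of all genes, and the median log2 ratio was -0.34. *Cd44*, encoding a hyaluronan receptor that assists MET, was at 36.9 and 1.45, 25.5-fold lower [19.1 to 34.7]. *Plaur*, encoding the urokinase receptor, was at 62.5 and 2.54, 24.6-fold lower [19.8 to 31.0]. *Plat* and *St14*, which also stand in the PDGF list, were the other called genes. *Hpn*, encoding the HGF-activating protease hepsin, at 179.4 and 278.6 (ratio 1.55 [1.51 to 1.60]), and *Gab1*, encoding an adaptor of MET, at 30.7 and 39.98, were the 2 genes with an interval above 1, and neither was called.

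In the FGF family the paracrine ligands differed in direction. *Fgf18* (gene ID 14172, chr11:33117430-33147400), known for its roles in skeleton and lung, had values of 5.33 and 0.846 (226 and 28 reads), 6.30-fold lower [4.25 to 9.70], the lowest ratio of all members compared. *Fgf2*, a mitogen of many cell types, had values of 7.81 and 4.41 (331 and 146 reads), 1.77-fold lower [1.45 to 2.17], and passed 2-fold with equal totals (log2 ratio of -1.10). The antisense gene *Nudt6* covers 9.44% of the exon bases of *Fgf2* and was itself higher in TG+AKI, at 5.33 and 13.95.

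*Fgf1*, which binds all FGF receptors, was per kilobase the most abundant FGF ligand, at normalized values of 254.5 and 359.7 (ratio 1.41 [1.38 to 1.45]). *Fgf9*, known from the developing nephron, was at 8.18 and 9.12 (ratio 1.11 [0.952 to 1.30]). *Fgf1* thus took 92.2% [91.7 to 92.7] of the reads on the 6 paracrine FGF genes in WT+AKI and 96.0% [95.6 to 96.3] in TG+AKI. The mesenchymal ligands of FGFR2 were close to absent: *Fgf10* had 5 and 15 reads (ratio 3.84 [1.33 to 13.5]) and *Fgf7* 6 and 5. The intracellular FGF homologous factors, which modulate sodium channels, were low too, with *Fgf11* at 4.01 and 4.23 (ratio 1.05 [0.837 to 1.33]) and *Fgf12* at 27 reads in each library. Other ligand genes, the endocrine *Fgf15*, *Fgf21* and *Fgf23* among them, had no row and were not analysed here.

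Among the FGF receptors, *Fgfr4* was called. *Fgfr4* (gene ID 14186, chr13:55152640-55168759), known from bile acid and phosphate control, had values of 18.0 and 37.7 (764 and 1248 reads), a ratio of 2.09 [1.91 to 2.29]. The interval reached below 2, and the log2 ratio was 0.79 with equal totals and 0.92 with the median ratio of highly expressed genes set to 1, so among the scalings tried the call held for the deposited one and for DESeq2 size factors. *Fgfr3* was at 36.8 and 48.3 (ratio 1.31 [1.22 to 1.41]), with 13.9% of its exon bases covered by an antisense gene. *Fgfr1* was at 59.4 and 49.0 (ratio 0.825 [0.774 to 0.878]). *Fgfr2* was at 13.6 and 11.5 (ratio 0.848 [0.743 to 0.966]).

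The balance of the FGF receptors therefore differed. *Fgfr4* took 14.1% [13.2 to 15.0] of the reads on the 4 receptor genes in WT+AKI and 25.7% [24.5 to 27.0] in TG+AKI, and *Fgfr1* 46.5% [45.2 to 47.8] and 33.5% [32.1 to 34.8]. Per kilobase of exon, *Fgfr4* had the highest level of the 4 in TG+AKI (10.6) and *Fgfr1* in WT+AKI (6.02). All 11 proximal tubule markers were higher in the same library, and their part in the value of *Fgfr4* was not tested.

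Of the 12 listed co-receptors and binding partners of FGF, 11 were compared, and 1 was called higher and 2 lower. The shares were 9.09% higher and 18.2% lower, against 7.35% and 11.0% of all genes, and the median log2 ratio was -0.14. The gene called higher was *Kl* (klotho), the co-receptor of FGF23 in the distal tubule, at 139.7 and 638.2 (ratio 4.57 [4.44 to 4.70]). *Sdc1*, encoding the heparan sulfate carrier syndecan 1, was at 50.5 and 14.3, 3.55-fold lower [3.21 to 3.93]. *Fgfbp3*, encoding an FGF carrier, was at 4.08 and 2.02, 2.02-fold lower [1.51 to 2.72], and was not called with DESeq2 size factors or either pseudocount.

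The members that share only the name included 1 called gene. *Igf2bp2* (gene ID 319765, chr16:22059009-22163299), encoding a protein that binds mRNA, was at 21.9 and 9.39 (928 and 311 reads), 2.33-fold lower [2.05 to 2.66]. *Igf2bp1* was at 5.97 and 6.82 (ratio 1.14 [0.952 to 1.37]), and *Igf2bp3* had 15 and 5 reads. *Fgfr1op*, whose product sits at the centrosome, was at 23.2 and 20.1, and *Fgfr1op2* at 68.3 and 69.3. Without these 5 genes, 4 of 30 members compared were higher and 3 lower.

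Below the receptors, genes of the kinase cascade were nearly all within 2-fold, whereas many genes that ERK signaling induces were lower. Of 28 genes for adaptors, RAS, RAF, MEK, ERK, PI3-kinase and AKT, 1 was called higher (*Frs3*, an adaptor of FGF receptors, at 3.87 and 10.4) and 1 lower (*Nras*, at 65.9 and 32.3). Their median log2 ratio was 0.08, and -0.20 with equal totals. Of the 20 ERK target and feedback genes, 19 were compared, and 10 were called lower and none higher, which is 52.6% against 11.0% of all genes. Their median log2 ratio was -1.02. The count was 8 with a pseudocount of 1 and 12 with equal totals. *Fosl1*, *Dusp5* and *Etv4* reached a value of 1 in WT+AKI only. The list was chosen with earlier results of these data known, so its share is a description and not a test.

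**Figure D4:**
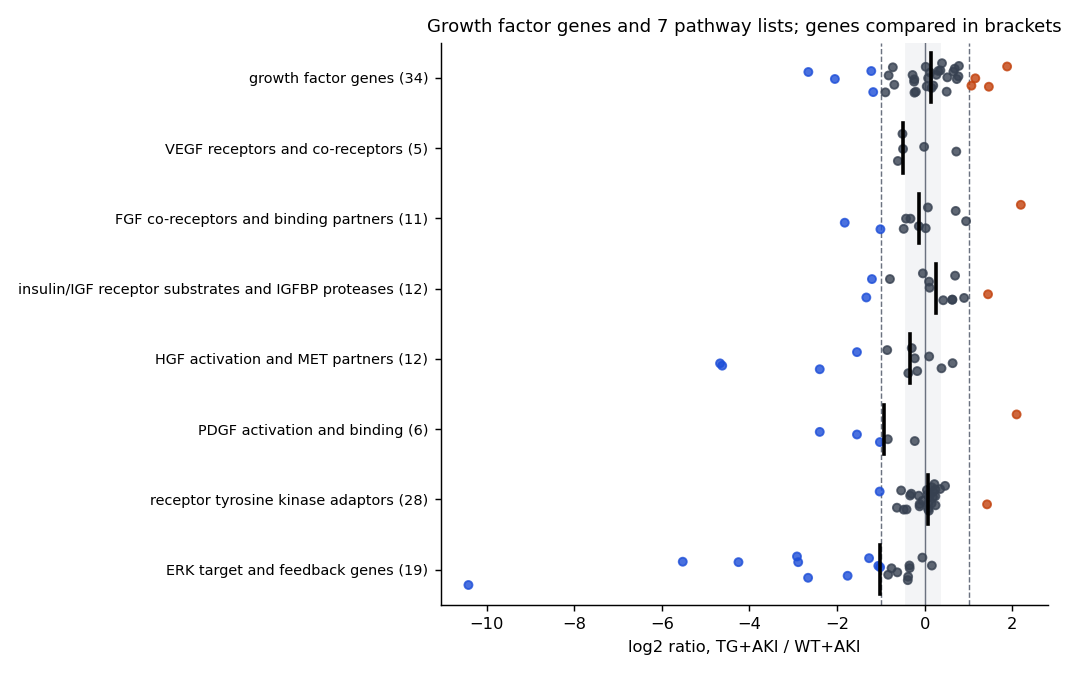
Log2 ratio of TG+AKI to WT+AKI for the 34 growth factor genes compared and for 7 lists around their pathways, with the number of genes compared in brackets. Each point is a gene, black bars are medians, dashed lines mark 2-fold, and the grey band is the interquartile range of all genes compared (-0.43 to 0.36). The ERK target and feedback genes have the lowest median, at -1.02.

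The largest of these differences lay in genes with few reads in TG+AKI. *Dusp5*, encoding a nuclear phosphatase of ERK, was at 19.4 and 0.423 (824 and 14 reads), 46.0-fold lower [27.2 to 84.5]. *Etv4*, encoding an ETS transcription factor induced by FGF, was at 9.20 and 0.483 (390 and 16 reads), 19.0-fold lower [11.6 to 33.6]. *Spred3*, encoding an inhibitor of the cascade, was at 19.6 and 2.60, 7.55-fold lower [6.04 to 9.54]. *Fosl1*, encoding a subunit of AP-1, had 1745 reads in WT+AKI and 1 read in TG+AKI, which gives a ratio of 0.000734 [1.86e-05 to 0.00409]. Of the 19 genes, 17 had an interval below 1, and *Etv1* was the 1 gene with an interval above 1 (34.7 and 38.8, ratio 1.12 [1.04 to 1.21]). Many of the called genes are also induced by other growth factors, cytokines and injury, and all 10 markers of injured proximal tubule were lower in the same library, and their part in these values was not tested.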

How the data were processed

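Normalized expression of 19829 genes in 2 whole-kidney libraries, 1 per group, was analysed, with groups taken from the library names. The authors aligned reads with STAR 2.7.3a, counted them per gene with HTSeq and normalized them with DESeq2, and the submitters' processing notes also name mm10, edgeR and Cufflinks 2.2.1. The deposited values are a normalized signal, a read count divided by a library factor. Each was a whole multiple of the smallest of its column (100% of values, tolerance 0.01), so reads were recovered. The library factors equalled library size times the edgeR 4.0.16 TMM factors of these reads (1.10 and 0.909), whereas DESeq2 1.42.0 size factors were 1.14 and 0.879. A scaling factor chosen otherwise shifts all ratios alike.

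Genes that reached a value of 1 in either library (about 42.4 reads in WT+AKI, 33.1 in TG+AKI) were compared by the ratio of values, with 95% Clopper–Pearson intervals, and called at 2-fold. No test between conditions was possible with 1 library per group, so no p-values are given. PCR reads without molecular identifiers are not independent molecules, so intervals cover counting error only. Levels per kilobase used merged exons of GENCODE M21 (GRCm38), found for all 41 members. The procedure was also run on simulated counts, in which 14717 genes passed the filter. Genes set 4-fold higher or lower were called in 100% of cases, and 95.3% of the counting intervals held the simulated ratio. Since 4-fold lies well past the 2-fold call, that check could not show how changes near 2-fold are recovered. It also could not measure variation between mice.

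The members, the gene lists and the alternatives were chosen with earlier results of these data known. All members were named, and from each list up to 4 genes with the largest absolute log2 ratio. The remaining named list genes were added after their values were seen. Among them are genes that differed in direction or stayed near 1. Alternatives were pseudocounts of 1 and 0.1, equal column totals, a factor that sets the median ratio to 1 for genes at 100 or more in each library, DESeq2 size factors, no filter, a filter of 10, and calls on the whole interval. Sequences came from RefSeq (GRCm38.p6). Python 3.11.15, numpy 2.4.6, scipy 1.17.1, pandas 2.3.3, matplotlib 3.10.9 and R 4.3.3 were used.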

Additional observations from a re-analysis of the deposited data

How the results depend on the processing

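Among the members, the calls moved by more than 1.5 times under equal column totals alone, where 2 were higher (*Fgfr4* and *Vegfa* dropped out) and 7 lower (*Fgf2*, *Pdgfra* and *Pdgfrb* came in). Without a filter, *Fgf10* and *Igfbp2* joined the higher and *Igf2bp3* and *Pgf* the lower members. With a filter of 10, *Igfbp1* and *Fgf18* were no longer compared. With the median ratio of high genes set to 1, *Fgfr4* dropped out and *Pdgfrb* came in. No called member changed its direction. Over all genes, equal column totals gave 715 higher genes, the absence of a filter gave 1821 higher and 2489 lower genes, and a filter of 10 left 629 and 790. The counts of called members and genes stayed within 1.5 times of those reported under both pseudocounts, DESeq2 size factors, the median-ratio scaling and calls on the whole interval, the last of which called 3 members higher, without *Fgfr4*, and 4 lower. Equal column totals moved the log2 ratio of 26 of the 41 members beyond their counting interval, the median-ratio scaling 17 and a pseudocount of 1 moved 2. A shift of all genes by 1 factor is the construction of both scalings. No replicate could be left out, and no paired analysis was possible because each group has 1 library. Depth limits the members with few reads: *Fgf7*, with 6 and 5 reads, had an interval from 0.258 to 4.20.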
